A study of Sus scrofa with 9 samples.

Results

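The miR-23, miR-27 and miR-24 family was described in small RNA profiles of porcine gametes and zygotes. Members were all listed names that, without the species prefix, began with miR-23, miR-27 or miR-24, followed by an optional letter and then a separator or the end of the name. The rule found 13 of 1313 names, of which 8 carried the pig prefix and 5 the prefix of another species. Summed by mature miRNA, they gave 10 of 1084 mature miRNAs. Of these, miR-23a, miR-23b, miR-27a, miR-27b-3p and miR-24-3p were abundant enough to be compared and are called the 5 members in what follows.

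The study profiled metaphase II (MII) oocytes, which are mature unfertilized eggs, pronuclear (PN) embryos, which are fertilized eggs before the parental genomes mix, and mature sperm. There were 3 libraries per group, all labelled as untreated. According to the study's methods, oocytes came from slaughterhouse ovaries of postpubertal gilts, were matured in vitro and were stripped of cumulus cells before RNA was taken from a large pool. PN embryos were also a large pool, made by in vitro fertilization, and sperm was purified from fresh semen of adult Large White boars. Eggs of both groups had been exposed to gonadotropins and growth factors during maturation, and those that became PN embryos also to caffeine in the fertilization medium. The semen used for fertilization was described as coming from Landrace boars, another breed than that of the sperm libraries. Whether the 3 libraries of a group came from separate pools was not stated, so p-values measure the spread between these libraries, which may be technical.

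MicroRNAs are short RNAs that guide a silencing complex to messenger RNAs, mainly through a seed near the 5′ end. In mammals miR-23, miR-27 and miR-24 are made from shared primary transcripts at a pair of paralogous loci, one holding miR-23a and miR-27a and the other miR-23b and miR-27b, each with a copy of miR-24. The paralogs of miR-23 differ outside the seed, as do those of miR-27, so each pair is expected to share many targets, and the family is best known for roles in endothelial cells, blood cell differentiation and fat cell formation.

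In the RefSeq annotation of the pig assembly Sscrofa11.1, the precursor MIR23A lay at chr2:65308117-65308186, MIR27A at chr2:65308294-65308375 and MIR24-1 at chr2:65308453-65308524. These 3 precursors spanned 408 nucleotides, and no annotated protein-coding gene covered them. On chromosome 10, MIR24-2 lay at chr10:27079417-27079496, MIR27B at chr10:27079963-27080042 and MIR23B at chr10:27080197-27080276. These 3 spanned 860 nucleotides inside the protein-coding gene C10H9orf3, which was annotated at chr10:27078115-27472347. Exon or intron position was not assigned here.

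Levels are normalised read counts, given as counts per 1000000 (CPM) of the library's table total. The totals were 289183 to 381674 counts in MII oocytes, 422630 to 771001 in PN embryos and 1640492 to 2455102 in sperm. These ranges did not overlap, so depth and group cannot be told apart. A single miRNA, miR-205, took 45.8% to 49.3% of each MII oocyte library and 45.2% to 45.8% of each PN embryo library, but 0.00525% to 0.00707% of each sperm library. All levels are shares of sequenced small RNA: fewer molecules per cell and a larger amount of other small RNA cannot be told apart. Orders of groups given below are orders in this CPM, with miR-205 in the total. Leaving miR-205 out would raise oocyte and embryo levels against sperm and could change such orders. That was computed for the members' sum alone.

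The identity of the groups was checked against marker miRNAs. The 4 listed forms of the sperm markers miR-34c and miR-449a summed to 89433 to 93580 CPM in sperm, against 1387 to 1584 CPM in the oocyte and 1155 to 1330 CPM in the embryo libraries. Of 4 listed forms of the oocyte and early embryo markers miR-371 and miR-302, 3 were listed at 0 in each MII oocyte library and all 4 in each sperm library. The remaining form, miR-371-5p, averaged 1183 ± 98.9 CPM (SD, n = 3) in the oocyte and 1137 ± 92.8 CPM in the embryo libraries. The other 3 averaged between 3.36 and 20.3 CPM in PN embryos.

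The 5 members together took a small part of the reads in each group and were made up differently. Their sum was 7454, 7071 and 7144 CPM for the MII oocyte libraries, 9370, 9526 and 9384 CPM for the PN embryo libraries and 7654, 8439 and 8361 CPM for the sperm libraries. The mean share of the library was 0.722% ± 0.0203 (SD, n = 3) in MII oocytes, 0.943% ± 0.00861 in PN embryos and 0.815% ± 0.0432 in sperm. The groups did not overlap in any of the 3 comparisons, each with p = 0.1 in a two-sided exact permutation test, the smallest p that 3 libraries against 3 allow. Adjusted over the 12 share comparisons made, each p stayed at 0.1. When miR-205 was left out of the library total, the shares became 1.37%, 1.73% and 0.815%, so that the difference of sperm from MII oocytes turned from 0.0928 to -0.559 percentage points.

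**Figure D1:**
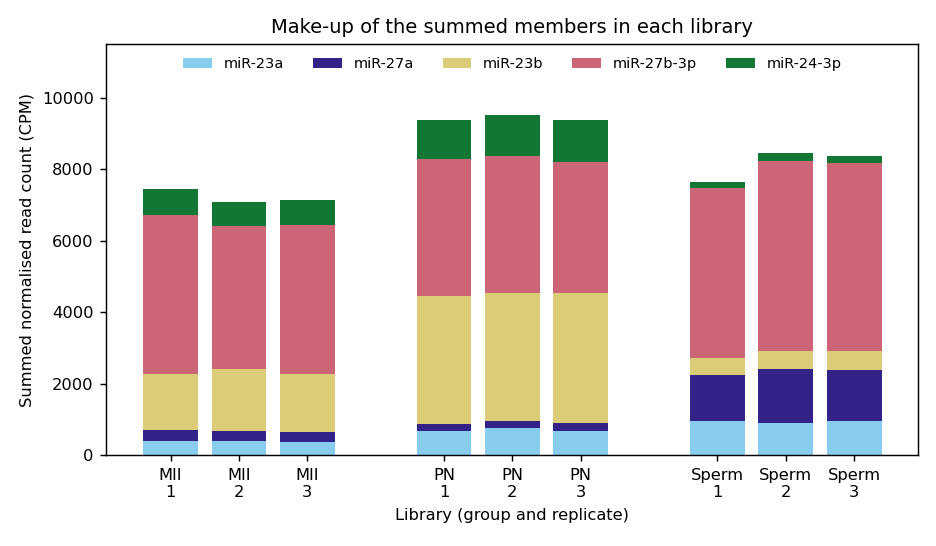
Stacked bars give the summed normalised read count (CPM, linear axis from 0) of the 5 members in each of the 9 libraries, with group and replicate on the horizontal axis and 1 colour per mature miRNA. miR-27b-3p is the largest segment in each library, miR-23b is widest in PN embryos, miR-27a is widest in sperm and miR-24-3p is thinnest in sperm.

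The order of the members was the same in MII oocytes and PN embryos and differed in sperm. In MII oocytes it ran miR-27b-3p, miR-23b, miR-24-3p, miR-23a, miR-27a from high to low, as it did in PN embryos. In sperm it ran miR-27b-3p, miR-27a, miR-23a, miR-23b, miR-24-3p. No neighbours in these orders overlapped between libraries of a group, although miR-27b-3p and miR-23b came close in PN embryos, at 3662 to 3828 and 3555 to 3645 CPM. The place of miR-24-3p above miR-23a in MII oocytes and PN embryos rests on summing its 2 identical rows. With these counted once, it would lie below miR-23a in both groups. Levels of different miRNAs within a library were not corrected for unequal ligation or amplification.

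On chromosome 2, miR-23a had its lowest CPM in MII oocytes and its highest in sperm, with miR-205 in the total. In the MII oocyte libraries it stood at 405, 404 and 373 CPM, in the PN embryo libraries at 692, 760 and 671 CPM and in the sperm libraries at 964, 913 and 950 CPM. The 3 groups did not overlap. The means were 394 ± 18.0, 708 ± 46.7 and 943 ± 26.6 CPM (SD, n = 3 each).

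Its cluster mate miR-27a, which is known as a brake on fat cell differentiation, separated sperm from the other groups more widely. In the MII oocyte libraries it stood at 316, 274 and 265 CPM, in the PN embryo libraries at 196, 203 and 231 CPM and in the sperm libraries at 1270, 1491 and 1431 CPM. All sperm libraries stood above all others, while PN embryos lay below MII oocytes by a small gap. The means were 285 ± 27.2, 210 ± 18.3 and 1397 ± 114 CPM (SD, n = 3 each).

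On chromosome 10, miR-23b was highest in PN embryos and lowest in sperm, unlike its paralog miR-23a. In the MII oocyte libraries it stood at 1563, 1731 and 1639 CPM, in the PN embryo libraries at 3555, 3588 and 3645 CPM and in the sperm libraries at 494, 518 and 533 CPM. The groups were far apart, with means of 1644 ± 84.2, 3596 ± 45.3 and 515 ± 19.96 CPM (SD, n = 3 each). By mean level it ranked 52nd among mature miRNAs in MII oocytes, 30th in PN embryos and 115th in sperm.

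The other chromosome 10 product, miR-27b-3p, was the most abundant member in each of the 9 libraries. In the MII oocyte libraries it stood at 4442, 4000 and 4172 CPM, in the PN embryo libraries at 3828, 3821 and 3662 CPM and in the sperm libraries at 4742, 5299 and 5245 CPM. The groups did not overlap. The means were 4205 ± 222.8, 3770 ± 94.4 and 5095 ± 307 CPM (SD, n = 3 each), and the ranks were 21, 27 and 36. The place of sperm above the other groups holds for a total that includes miR-205.

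The shared product miR-24-3p, which can come from either locus, resembled miR-23b in its order of groups. In the MII oocyte libraries it stood at 728, 662 and 695 CPM, in the PN embryo libraries at 1098, 1154 and 1176 CPM and in the sperm libraries at 185, 219 and 201.6 CPM. The means were 695 ± 33.3, 1143 ± 40.4 and 201.9 ± 17.3 CPM (SD, n = 3 each), with no overlap between groups. The name stood in 2 rows of identical values, which were summed. Counted once, its level would be lower by the same factor in each library and its folds between groups would be unchanged.

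**Figure D2:**
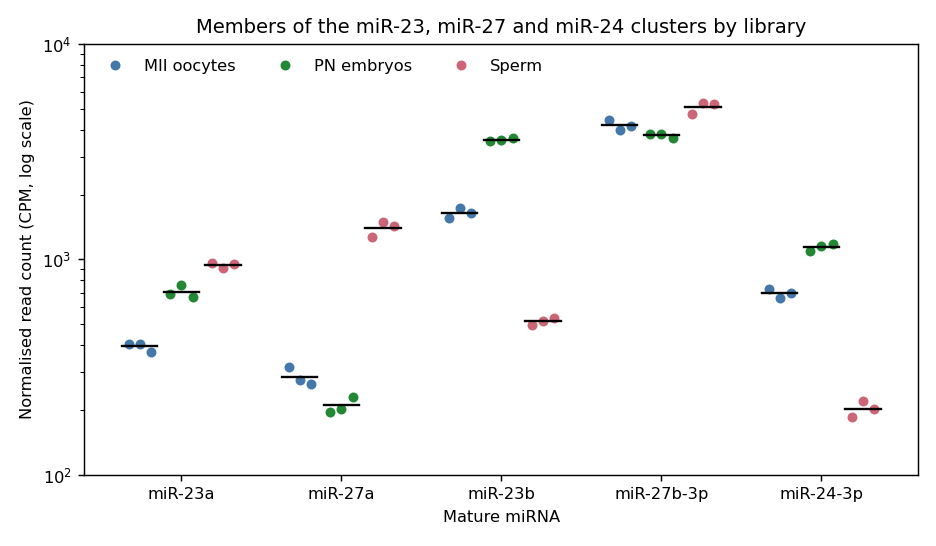
Each point is the normalised read count (CPM, log axis) of a mature miRNA in a library, with black lines at group means and 3 libraries per group. miR-23a and miR-27a are highest in sperm, miR-23b and miR-24-3p are highest in PN embryos and lowest in sperm, and miR-27b-3p stays between 3662 and 5299 CPM.

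The values also held fractions, from which a division of reads between paralogs was inferred. In 5 of 9 libraries the counts of miR-23a and of miR-23b were not whole numbers, but the sum of the pair was whole in 9 of 9 (tolerance 1e-06). The same held for miR-27a and miR-27b, with 3 of 9 libraries not whole and a whole sum in 9 of 9. For miR-24-3p each row was not whole in 4 of 9 libraries, whereas both rows together were whole in 9 of 9. Where reads that fit both paralogs are split equally, the paralogs are drawn together, so the differences between them given here may be understated, and the number of such reads was not given by the values. The reads of miR-24-3p cannot be assigned to chromosome 2 or 10.

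The balance of the miR-23 paralogs differed in sperm. miR-23b made up 79.4%, 81.1% and 81.4% of the reads of the pair in MII oocytes, 83.7%, 82.5% and 84.5% in PN embryos and 33.9%, 36.2% and 35.9% in sperm. Thus miR-23b was the larger product in all oocyte and embryo libraries and the smaller one in all sperm libraries. The means were 80.6% ± 1.07, 83.6% ± 0.980 and 35.3% ± 1.28 (SD, n = 3 each). The difference was -45.3 percentage points for sperm minus MII oocytes, -48.2 for sperm minus PN embryos and 2.92 for PN embryos minus MII oocytes. Each of these 3 differences had p = 0.1 in the exact permutation test, the smallest possible.

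The miR-27 pair moved the same way but stayed dominated by miR-27b-3p. Its share of the pair was 93.4%, 93.6% and 94.0% in MII oocytes, 95.1%, 94.96% and 94.1% in PN embryos and 78.9%, 78.0% and 78.6% in sperm. Sperm stood apart, whereas the lowest PN embryo library lay just above the highest MII oocyte library. The means were 93.7% ± 0.343, 94.7% ± 0.567 and 78.5% ± 0.419 (SD, n = 3 each). The difference of PN embryos from MII oocytes was 1.05 percentage points and that of sperm from MII oocytes -15.2, each with an exact permutation p = 0.1. These shares compare reads within a library, so depth and miR-205 cancel.

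**Figure D3:**
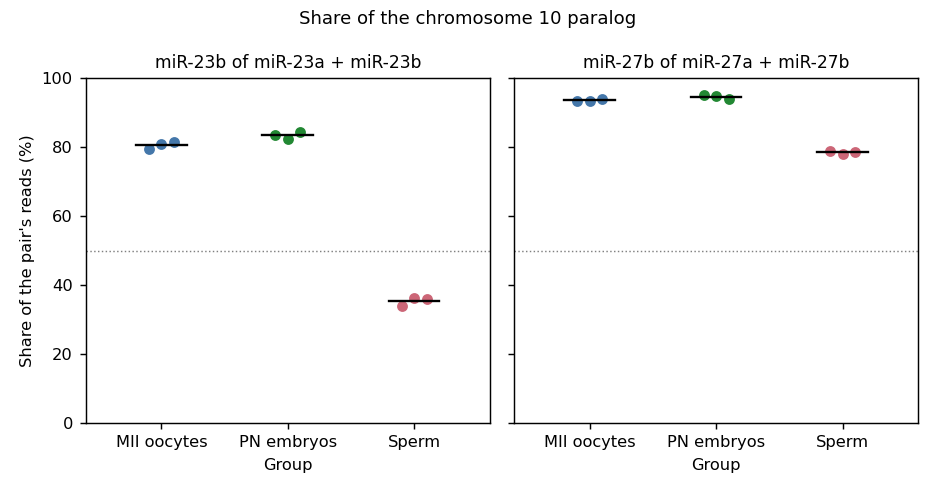
Points give, for each library, the percentage of a pair's reads assigned to the chromosome 10 paralog (axis from 0 to 100%), with black lines at the group means, a dotted line at equal shares and 3 libraries per group. Sperm lies below the dotted line for miR-23b, at 33.9% to 36.2%, and above it for miR-27b-3p, at 78.0% to 78.9%.

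Products of one locus did not keep a fixed ratio. The ratio of miR-23b to miR-27b-3p was 0.392 ± 0.0405 in MII oocytes, 0.954 ± 0.0360 in PN embryos and 0.101 ± 0.00324 in sperm (SD, n = 3 each). On chromosome 2, the ratio of miR-23a to miR-27a was 1.39 ± 0.0986, 3.39 ± 0.437 and 0.679 ± 0.0745 in the same groups. In both clusters the miR-23 product was thus highest against its miR-27 mate in PN embryos and lowest in sperm. The ratio of miR-27b-3p to miR-24-3p was 6.05 ± 0.0483, 3.30 ± 0.187 and 25.3 ± 0.980. No test was made on the ratios.

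miR-24-3p also differed as a part of the family. It held 9.77%, 9.36% and 9.73% of the members' reads in MII oocytes, 11.7%, 12.1% and 12.5% in PN embryos and 2.41%, 2.598% and 2.41% in sperm. The groups did not overlap, and each of the 3 comparisons had an exact permutation p = 0.1. With the pair of identical rows counted once, the means were 5.05%, 6.45% and 1.25% in place of 9.62%, 12.1% and 2.47%.

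Summed by locus, miR-23a and miR-27a together had 679 ± 41.3 CPM in oocytes, 918 ± 39.8 CPM in embryos and 2340 ± 92.1 CPM in sperm (SD, n = 3 each). miR-23b and miR-27b-3p together had 5849 ± 140.8, 7366 ± 53.7 and 5610 ± 325 CPM. With miR-205 in the total, the chromosome 2 pair was thus highest in sperm and the chromosome 10 pair highest in PN embryos. For the latter pair, MII oocytes and sperm overlapped at 5731 to 6005 and 5235 to 5817 CPM.

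Differences between groups were tested with edgeR's quasi-likelihood test over all 485 mature miRNAs that passed the count filter, and calls required an adjusted p (q) under 0.05 together with a log2 fold change of 1 or more in size. The first comparison asked what changed between the unfertilized egg and the zygote. Of the 5 members tested, 1 was called higher in PN embryos than in MII oocytes and 0 lower, beside 5.57% higher and 2.06% lower among all tested. With the 587 names tested in place of mature miRNAs the members gave the same counts, beside 11.2% higher and 1.7% lower. The called member was miR-23b, at a log2 fold change of 1.07 ± 0.08 (SE, edgeR q = 2.02e-05), close to the threshold of 1.

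The other members fell short of that size. The log2 fold change of miR-23a was 0.78 ± 0.09 (SE, edgeR q = 2.36e-04) and that of miR-24-3p was 0.66 ± 0.10 (edgeR q = 0.00173). The values for miR-27a and miR-27b-3p were negative, at -0.49 ± 0.14 (edgeR q = 0.0391) and -0.22 ± 0.08 (edgeR q = 0.0935). Both were lower at an unadjusted p under 0.05 in edgeR. DESeq2 gave a q of 0.00588 for miR-27a and 0.0195 for miR-27b-3p, and called neither for its size. Over the alternative settings the q of miR-27a ranged from 0.00588 to 0.210 and that of miR-27b-3p from 0.00571 to 1.0. The median log2 fold change was 0.66 over the members and 0.03 over all tested, so 3 members lay above the overall median and 2 below 0.

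Some markers of red blood cells and of sperm differed in this comparison, those of sperm in both directions. The 5 listed forms of the red blood cell markers miR-451, miR-486 and miR-144 summed to 166 to 254 CPM in oocytes and 788 to 822 CPM in embryos. Of 4 tested, 2 were called higher, beside 5.57% higher among all mature miRNAs tested. The called form miR-451 averaged 102 ± 36.4 CPM (SD, n = 3) in oocytes and 509 ± 35.9 CPM in embryos. The only white blood cell marker form tested, miR-142-5p, was not called, at a log2 fold change of -0.04. The 6 listed forms of follicle somatic cell and fibroblast markers summed to 1331 to 2096 CPM in oocytes and 1278 to 1470 CPM in embryos. Of these 1 was called lower, miR-199a-5p, beside 2.06% lower among all tested. Of the 4 sperm marker forms, miR-449a was called higher in PN embryos, at 78.7 ± 20.4 against 38.7 ± 18.2 CPM (log2 fold change 1.04, edgeR q = 0.0355), while miR-34c had a log2 fold change of -0.39 (edgeR q = 0.00282). The part of these markers in the members' differences was not tested.

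The second comparison set sperm against MII oocytes. Of the 5 members, 2 were called higher in sperm and 2 lower, beside 40.2% higher and 42.3% lower among all mature miRNAs tested, and 42.2% higher and 40.7% lower among names, where the members gave the same counts. miR-27a rose with a log2 fold change of 2.43 ± 0.13 (SE, edgeR q = 2.93e-08), a 5.39-fold difference. miR-23a rose by 1.39 ± 0.09 on the log2 scale (edgeR q = 1.35e-07). The lower members were miR-24-3p, at -1.65 ± 0.11 (edgeR q = 1.67e-07), and miR-23b, at -1.54 ± 0.08 (edgeR q = 4.01e-08). miR-27b-3p differed by 0.41 ± 0.08 (edgeR q = 8.02e-04) and was not called for its size. The median was 0.41 over the members and -0.12 over all tested.

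The third comparison set sperm against PN embryos. There 1 member was called higher in sperm and 2 lower at both levels of naming, beside 38.4% higher and 44.3% lower among mature miRNAs and 38.8% and 47.4% among names. miR-27a was higher by 2.92 ± 0.12 on the log2 scale (SE, edgeR q = 4.93e-09), a 7.58-fold difference. miR-23b had a log2 fold change of -2.61 ± 0.08 (edgeR q = 5.35e-10) and miR-24-3p one of -2.30 ± 0.10 (edgeR q = 7.27e-09). miR-23a, at 0.61 ± 0.08 (edgeR q = 4.11e-05), and miR-27b-3p, at 0.63 ± 0.08 (edgeR q = 3.30e-05), passed the q threshold but not the size. The median was 0.61 over the members and -0.28 over all tested. Each group stands in more than 1 of these comparisons, so their values are not independent.

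**Figure D4:**
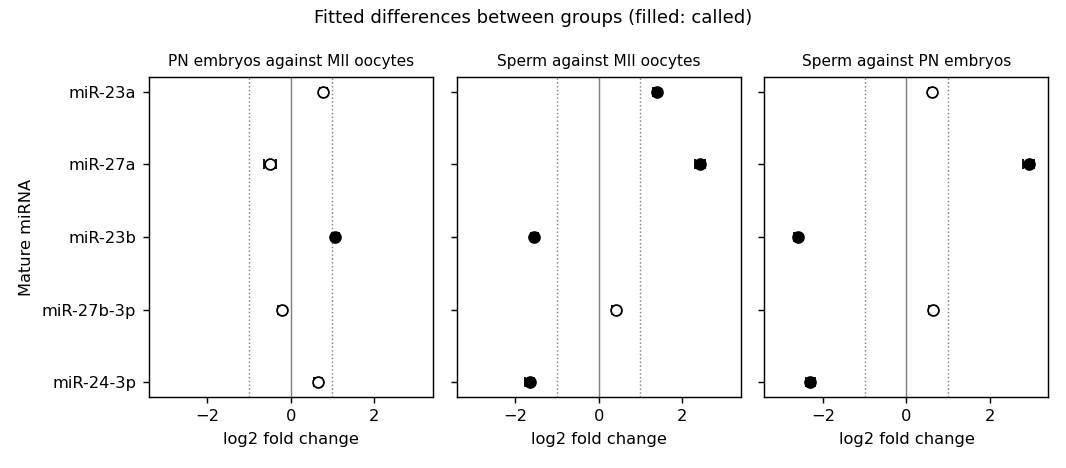
Points give fitted log2 fold changes of the 5 members in the 3 comparisons, with bars of 1 SE, a solid line at 0 and dotted lines at the size threshold of 1. Filled points were called: miR-23b in each comparison, miR-27a and miR-24-3p in both comparisons with sperm, and miR-23a in sperm against MII oocytes.

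Other cell type markers were also set beside the comparisons with sperm, and not all of them differed. Among all mature miRNAs tested, 40.2% were called higher and 42.3% lower in sperm than in MII oocytes. Against PN embryos these shares were 38.4% and 44.3%. Markers of follicle somatic cells and fibroblasts summed to 87.8 to 114 CPM in sperm. All 6 tested were called lower than in MII oocytes and 4 lower than in PN embryos. The red blood cell markers summed to 160 to 260 CPM in sperm, near the 166 to 254 CPM of oocytes. In embryos they summed to 788 to 822 CPM. Of 4 tested, 1 was called lower in sperm than in MII oocytes and 3 lower than in PN embryos. White blood cell markers summed to 108 to 120 CPM in sperm, against 0 to 60.2 CPM in oocytes and 47.3 to 53.2 CPM in embryos. The epithelial markers miR-200b, miR-200c and miR-141 summed to 5751 to 6247 CPM in sperm, 1311 to 1585 CPM in oocytes and 1313 to 1499 CPM in embryos. They did not move together. miR-200b averaged 249, 266 and 4070 CPM in oocytes, embryos and sperm, whereas miR-141 averaged 94.8, 73.6 and 33.1 CPM. Of 3 forms tested, miR-200b was called higher and miR-141 lower in sperm than in MII oocytes, and miR-200c was not called. Against PN embryos miR-200b alone was called, as higher. Whether any of these bore on the members was not tested.

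The remaining 8 member names were near the lowest value listed, which was 5 reads. None held more than 19 reads in a library, together they held 0.1997% of the members' counts, and none passed the filter. They were the opposite (5p) arms and rarer forms. The name ssc-miR-24-2-5p_R-2, named for the chromosome 10 copy of miR-24, was listed in sperm alone, with 6, 0 and 8 reads. Names listed in PN embryos alone were ocu-miR-23b-5p_L+1 with 5, 6 and 0 reads, ssc-miR-24-1-5p_L+1R-1 with 5, 0 and 6 reads, ssc-miR-27b-5p_R-1 with 6, 0 and 14 reads and sha-mir-24-1-p3_1ss2GC with 0, 0 and 7 reads. In 3 of these, all listed in PN embryos alone, the counts were identical to those of names outside the family. The other 3 names were forms of miR-27a and miR-27b-3p and were summed with these.

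A value of 5 reads stood for 13.1 to 17.3 CPM in oocytes, 6.49 to 11.8 CPM in embryos and 2.04 to 3.05 CPM in sperm. Differences of the 5p arms from MII oocytes were therefore mostly not detectable at this depth. Between PN embryos and the deeper sperm libraries, ssc-miR-27b-5p_R-1 was called lower in sperm only without any filter and without 1 of the MII oocyte libraries. This name had reads in PN embryos alone, so a filter could admit it only through that group. Its call is therefore no separate test of a difference.

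Other miRNAs known from vessel walls and low oxygen were set beside the members, since the family is best known there. Of 12 listed forms of miR-126, miR-221, miR-222, miR-130a, miR-210, miR-92a and miR-100, 7 were tested. In PN embryos against MII oocytes 0 of them were called by edgeR or by DESeq2, and 4 were lower at an unadjusted p under 0.05 with either tool. In sperm against MII oocytes 3 were called higher and 1 lower, beside 40.2% higher and 42.3% lower among all mature miRNAs tested. The same counts held against PN embryos, beside 38.4% and 44.3%. Those called higher were miR-100 and the listed forms miR-92a and miR-92a-3p, which share the name of 1 miRNA. The hypoxia-induced miR-210 was the lower one, at 698 ± 92.5, 437 ± 47.4 and 47.0 ± 1.97 CPM (SD, n = 3) in oocytes, embryos and sperm. The endothelial marker miR-126 was listed at 0 in each MII oocyte library, at 7.19 to 23.7 CPM in embryos and at 0 to 7.31 CPM in sperm.

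miR-128, whose seed is that of miR-27 shifted by 1 base, was far more abundant than the miR-27 pair in the egg. It averaged 67416 ± 4571 CPM (SD, n = 3) in oocytes, 59352 ± 781 CPM in embryos and 6609 ± 443 CPM in sperm. The sum of miR-27a and miR-27b-3p was 4490 ± 246, 3980 ± 76.3 and 6492 ± 420 CPM in the same groups, so the sums were of similar size in sperm alone. miR-128 was called lower in sperm than in MII oocytes, at a log2 fold change of -3.21 (edgeR q = 1.09e-10).

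Among 232 other mature miRNAs with a mean of at least 100 CPM, likeness to the members was measured as Pearson's r of log2(CPM + 1) over the 9 libraries, which fall into 3 groups. The sum of the 5 members was most like miR-6240-p5 (r = 0.90), miR-11987 (r = 0.90) and miR-2904 (r = 0.88). The chromosome 2 pair was most like miR-16 (r = 1.00), miR-15b (r = 1.00) and miR-132 (r = 0.99), which are all highest in sperm. miR-16 averaged 1526, 2580 and 15688 CPM in oocytes, embryos and sperm. The chromosome 10 pair was most like PC-5p-8558_472 (r = 0.96), miR-6240 (r = 0.95) and miR-6240-p5 (r = 0.95), which are highest in PN embryos.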

How the data were processed

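Small RNA libraries were made by adapter ligation, reverse transcription, PCR and gel selection. The values deposited by the authors were estimated counts per listed name, raw and without normalization, with reads that fit several entries divided among them. The submitters' processing notes name the genome build Sscrofa11.1. The aligner, miRNA caller and count filter are not given in the sources used here. No column of values was left unused (0 columns).

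Groups came from sample titles. Rows of 1 name were summed. For mature miRNAs, species prefix and variant suffix were removed, and different names with identical counts within a mature miRNA were taken once. Expected counts were rounded to whole numbers and tested with the quasi-likelihood method of edgeR 4.0.16 (R 4.3.3) with TMM, filterByExpr (minimum count of 10), all 9 libraries in one fit and Benjamini-Hochberg adjustment over all features. Each SE was the fold change divided by the root of F. Calls required q under 0.05 and a log2 fold change of at least 1. Shares were compared with exact permutation tests. Alternatives were DESeq2 1.42.0, its size factors, library totals, other filters, a replicate block, fewer groups and leaving out each library. On simulated data for PN embryos against MII oocytes with 4-fold changes, 100% of 187 mature miRNAs were recovered, with 4 false calls among 516 tested. The simulated libraries shared a common mean profile and a fixed spread, unlike the real groups. They check the code and do not give the error rate of the calls made here.

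Replicate libraries differed by more than sampling noise (chi-square per degree of freedom of 2.2 to 12.7) and were counted separately. PCR copies carry no molecular identifiers. Members, marker lists and tests were chosen with earlier results of these data known. Levels are printed for the 5 members as sums over their forms, and reads for names listed in 1 group only.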

Additional observations from a re-analysis of the deposited data

How the results depend on the processing

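Over 17 alternative fits, 497 of 510 values of the members kept their direction and their side of the call, 13 became calls and 0 reversed. All 13 came with q under 0.05 alone, which is the main fit without the size threshold and can only add calls. Of 117 share differences, 116 kept their direction. The exception was the members' share of the library in sperm against MII oocytes, which reversed to -0.559 percentage points without miR-205 in the total. With q under 0.05 alone, 5 member names were called in PN embryos against MII oocytes and 5 in sperm against PN embryos, and 4 and 5 by mature miRNA. Beside these stood 148 and 541 of all 587 names, and 96 and 434 of all 485 mature miRNAs. Where sparse names entered the fit, efu-miR-27a_R-3 and ssc-miR-27b-5p_R-1, with at most 12 and 14 reads in a library, were added to the calls. Both had no reads in sperm and entered through their reads in PN embryos, so these added calls are no support for a difference. Member names called in sperm against PN embryos were then 5 without a filter, and 4 with only these groups fitted or without any 1 of the MII oocyte libraries, in place of 3. Among all names, 751 of 1313 were called without a filter and 558 of 637 with only these groups. Without an MII oocyte library, 563 to 565 of 656 to 657 were called. By mature miRNA the members called were 4 without a filter or without any 1 of the MII oocyte libraries. Beside these stood 582 of 1084 mature miRNAs without a filter, and 453 to 460 of 543 to 549 without an MII oocyte library. In sperm against MII oocytes 5 names in place of 4 were called without a filter, beside 654 of all 1313. With q alone 5 members were called at either level, beside 522 of all 587 names and 431 of all 485 mature miRNAs. Scaling by library totals alone moved the median log2 fold change of all mature miRNAs from -0.28 to -0.48 in sperm against PN embryos and from -0.12 to -0.25 in sperm against MII oocytes, without changing a call of a member.

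Libraries of different groups that shared a replicate number correlated in their deviations at 0.12, 0.13 and 0.07 for PN embryos with MII oocytes. Libraries of different numbers were not compared in this way, so these values cannot show whether the numbers paired them. The fit with a replicate block called 1, 4 and 3 members in the 3 comparisons, as without it, but 19 in place of 37 mature miRNAs overall in PN embryos against MII oocytes. Depth limits the 5p arms against MII oocytes.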
